A study of Sus scrofa with 3 samples.

Results

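The miRNAs described here are those best known from epithelia and from the liver, the gut and the kidney, as they were found in small RNA of porcine psoas major muscle, a loin muscle of the lower back. Every miRNA listed as miR-122, miR-141, miR-192, miR-194, miR-200, miR-203, miR-205, miR-215 or miR-429, of any letter or arm, was taken, whatever species the name came from, and names that shared a read sequence were joined into 1 feature. This gave 27 features from 34 mature names, out of 1707 features in all. Of these, 10 belonged to a gut, kidney and liver group (miR-122, miR-192, miR-194 and miR-215) and 17 to an epithelial group (miR-141, miR-200, miR-203, miR-205 and miR-429). There were 11 features with at least 10 reads in a library, and 16 stayed below 10 reads in every library. The muscle came from fattening pigs (Sus scrofa) aged 63, 98 and 161 d, and per the study's methods equal amounts of RNA from several pigs were pooled for each age. Each age was thus 1 library without replicates, and the spread between pigs was not measured. No treatment, genotype or sex is given in the labels. The study's methods describe the animals as castrated males, hybrids of Landrace, Large White and Duroc. The 3 ages form the comparisons 63 to 98 d, 98 to 161 d and 63 to 161 d, which share libraries with each other.

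A miRNA guides the silencing complex to messenger RNAs mainly through its seed, bases 2 to 8 from the 5′ end. The miR-200 family (miR-200a, miR-200b, miR-200c, miR-141 and miR-429) holds the epithelial state by repressing the transcription factors ZEB1 and ZEB2, and is usually scarce in mesenchymal tissue such as muscle. miR-203 is a miRNA of the differentiating epidermis, and miR-205 of stratified epithelia. miR-122 is the dominant miRNA of hepatocytes. miR-192, miR-194 and miR-215 come from paired hairpins and are abundant in gut epithelium, kidney and liver.

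The mature sequences of the members with enough reads to compare are shown because the seeds group them, and because single bases separate close relatives; the seed is in capitals and the sequence is written 5′ to 3′ as in the deposited files.
ssc-miR-192: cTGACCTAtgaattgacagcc
ssc-miR-215: aTGACCTAtgaattgacagac
ssc-miR-194a: tGTAACAGcaactccatgtgg
ssc-miR-194b-5p: tGTAACAGcgactccatgtgga
ssc-miR-122: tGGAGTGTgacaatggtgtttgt
hsa-miR-200a-3p: tAACACTGtctggtaacgatgt
bta-miR-200a: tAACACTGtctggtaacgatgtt
mdo-miR-200a-3p: tAACACTGtctggtaacgatgt
bta-miR-141: tAACACTGtctggtaaagatgg
bta-miR-200b: tAATACTGcctggtaatgatg
ssc-miR-429: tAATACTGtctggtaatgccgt
mdo-miR-203: gTGAAATGtttaggaccacttg
cfa-miR-203: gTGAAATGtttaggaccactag
ssc-miR-205: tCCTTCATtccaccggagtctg
miR-192 and miR-215 shared the seed TGACCTA. miR-200a and miR-141 shared AACACTG, while miR-200b, miR-200c and miR-429 shared AATACTG, so the miR-200 family fell into 2 seed groups that differ by 1 base. Counting positions from 1 at the 5′ end, miR-192 and miR-215 differed by C1A and C20A (the miR-192 base first), and miR-141 and human miR-200a-3p by A17C and G22T (the miR-141 base first). miR-194a and miR-194b-5p differed by A10G over their shared length. The 3 names of miR-200a-3p (hsa-miR-200a-3p, bta-miR-200a and mdo-miR-200a-3p, from human, cattle and opossum) held the same sequence up to the length of the annotated 3′ end and form 1 feature.

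The deposited files place the hairpins on a pig genome whose build is not given in the sources used here; chromosome names were taken from the porcine hairpins listed on the same sequence. ssc-mir-192 lay at chr2:6416971-6417077 on the plus strand, 111 bases from ssc-mir-194a at chr2:6416775-6416859. ssc-mir-215 lay at chr10:11786564-11786665 on the minus strand, close to ssc-mir-194b at chr10:11786871-11786948. In the RefSeq gene table of Sscrofa11.1, MIR215 and MIR194B lie within IARS2, the gene of the mitochondrial isoleucyl-tRNA synthetase, whereas MIR192 and MIR194A lie between ATG2A and EHD1. ssc-mir-122 lay alone at chr1:179916327-179916422, between ALPK2 and NEDD4L in that table. The miR-141 and miR-200c hairpins lay 327 bases apart at chr5:66193711-66193796 and chr5:66194124-66194207. The miR-429 hairpin at chr6:58044173-58044254 and the miR-200b hairpin at chr6:58064307-58064381 were listed on opposite strands with 20052 bases between them. ssc-mir-205 lay at chr9:146808278-146808371, within a gene without a name (LOC102159171). The main miR-203 hairpin and the miR-200a hairpins were matched by name only and had no position.

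The libraries of 63, 98 and 161 d held 963906, 1709009 and 1543275 reads over the features, each counted at 1 row of the files. Levels are reads per 1000000 of these totals (RPM), and a count of 3 reads, the limit that a count of 0 allows, stood for 3.11, 1.76 and 1.94 RPM. All intervals are 95% intervals and cover counting error only. They take reads as independent molecules, which reads made by PCR are not, so they can be too narrow. The label of skeletal muscle was borne out by its markers: the 6 muscle miRNAs on the list (miR-1, miR-133a, miR-133b, miR-206, miR-208b and miR-499) summed to 342425, 301436 and 345537 RPM at 63, 98 and 161 d. Together the members made up 0.083%, 0.187% and 0.103% of the counted reads at 63, 98 and 161 d, and so were minor miRNAs of this tissue at every age.

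**Figure D1:**
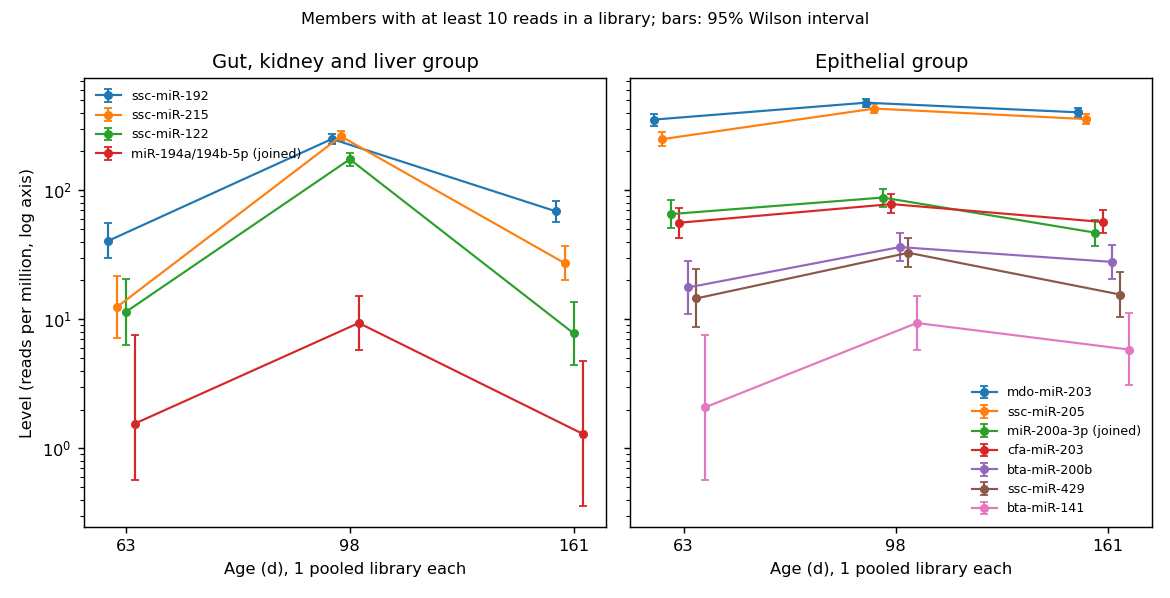
Level of each member with at least 10 reads in a library (reads per 1000000, RPM, log axis) at 63, 98 and 161 d, with 95% Wilson intervals, in the gut, kidney and liver group (left) and the epithelial group (right). ssc-miR-192, ssc-miR-215 and ssc-miR-122 reached 174 to 262 RPM at 98 d from 11.4 to 40.5 at 63 d, while mdo-miR-203 and ssc-miR-205 stayed between 249 and 477 at all ages.

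The miRNAs of gut, kidney and liver were far higher in the 98 d library than in the other two. As a group they had 64.5, 1195 and 163 reads at 63, 98 and 161 d, or 66.9, 699 and 106 RPM. The group was 10.5-fold higher at 98 d than at 63 d (interval 8.19 to 13.8), and at 161 d it was at 0.151 of its 98 d level (0.127 to 0.178). Between the outer ages it differed far less, with a ratio of 161 d to 63 d of 1.59 (1.18 to 2.16).

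ssc-miR-192, the most abundant of the group at 63 and 161 d, had 39, 426.5 and 106 reads at 63, 98 and 161 d. Its levels were 40.5, 250 and 68.7 RPM, which moved it from rank 283 among all features at the first age to rank 157 at the second. The 98 d library stood above both others, whose intervals (29.6 to 55.3 and 56.8 to 83.1) did not overlap each other either. The level was 6.16-fold higher at 98 d than at 63 d (4.43 to 8.79), and the ratio of 161 d to 98 d was 0.276 (0.221 to 0.342). The ratio of 161 d to 63 d was 1.7 (1.17 to 2.52), short of the 2-fold limit, which it passed on copies of the representative read (12 and 40), at 2.18 (1.12 to 4.57).

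ssc-miR-215, which shares the miR-192 seed, had 12, 447.5 and 42 reads. Its level of 12.4 RPM at 63 d compared with 262 at 98 d and 27.2 at 161 d. The ratio of 98 d to 63 d, 21.1 (11.9 to 41.1), was the highest of the 298 features that had at least 100 reads over these 2 libraries and a read at 63 d. For reads without mapping errors, 5 of the 12 at 63 d, it was 45.3 (19.2 to 140). The 161 d to 98 d ratio was 0.104 (0.0738 to 0.143), and 0.0637 (0.0366 to 0.104) on copies of the representative read. That of 161 d to 63 d was 2.19 (1.13 to 4.56), and it was 3.64 (1.39 to 12.0) for reads without mapping errors. On copies of the representative read (8 at 63 d and 17 at 161 d) it was 1.39 (0.569 to 3.72), and the call was lost.

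The balance of the 2 seed partners, which no scaling of the libraries can change, shifted as well. Of the reads of both, miR-215 gave 23.5% in the 63 d library (Wilson interval 14.0 to 36.8), but 51.2% in that of 98 d (47.9 to 54.6). In the 161 d library its share was 28.4% (21.7 to 36.1). The 98 d share lay outside the intervals of both other libraries, which overlapped each other. The seed TGACCTA as a whole went from 52.9 to 513 and then 95.9 RPM.

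ssc-miR-122, the hepatocyte miRNA, had 11, 297 and 12 reads at the 3 ages. Its levels were 11.4, 174 and 7.78 RPM, so that only the 98 d library was high and the intervals of the outer ages (6.37 to 20.4 and 4.45 to 13.6) overlapped. It was 15.2-fold higher at 98 d than at 63 d (8.39 to 30.8), rank 4 of the same 298 features, where miR-192 had rank 6. At 161 d it was at 0.0447 of its 98 d level (0.0229 to 0.0793). On copies of the representative read these ratios were 9.77 (4.33 to 27.2) and 0.0782 (0.0306 to 0.167). Set against miR-192, miR-122 made up 22.0%, 41.1% and 10.2% of the reads of both, with intervals of 12.8 to 35.2, 37.5 to 44.6 and 5.91 to 16.9. The opposite arm, hsa-miR-122-3p, had 1 read, at 98 d.

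The joined miR-194 feature was the scarcest of this group, with 1.5, 16 and 2 reads in the counted row, that of ssc-miR-194a. The ratio of 98 d to 63 d was 4.51 (1.06 to 40.5) and that of 161 d to 98 d was 0.138 (0.0154 to 0.589), both from counts rounded to whole reads. With the ssc-miR-194b-5p rows added there were 4, 72 and 8 reads, and the ratio of 98 d to 63 d was 10.9. miR-194b-5p, from the hairpin beside miR-215, had 56 of those reads at 98 d and miR-194a, from the hairpin beside miR-192, had 16. Thus the hairpins of both clusters had their most reads in the same library.

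**Figure D2:**
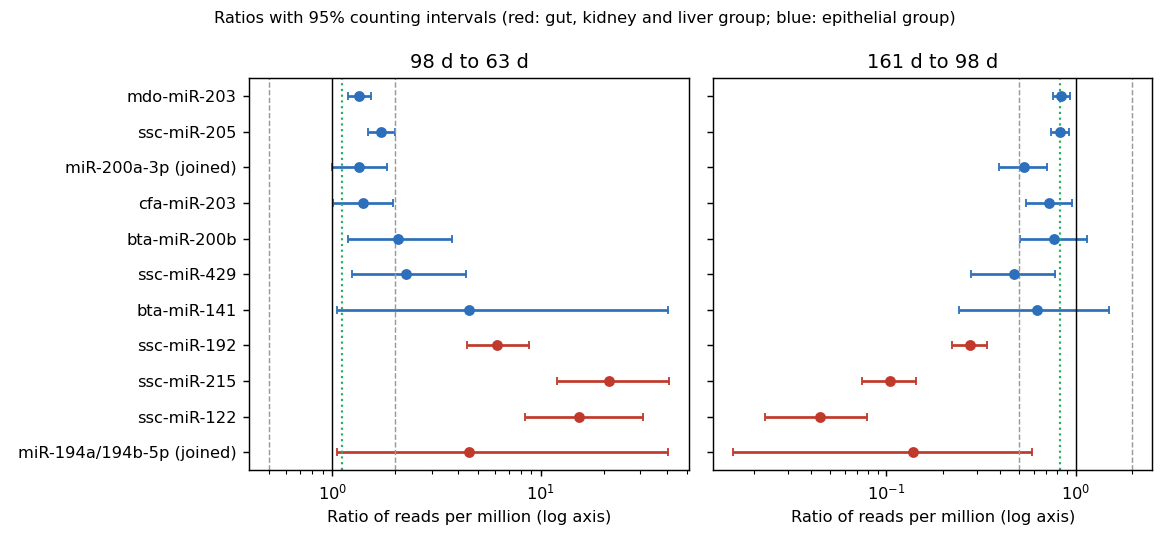
Ratio of levels (log axis) for 98 d to 63 d (left) and 161 d to 98 d (right), with 95% counting intervals; solid line, no difference; dashed lines, 2-fold limits; dotted line, median of all features tested (1.11 and 0.831). The red members of the gut, kidney and liver group lie at ratios of 4.51 to 21.1 on the left and 0.0447 to 0.276 on the right, and the blue epithelial members lie nearer to 1.

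The epithelial group was the larger one and differed less between ages. It had 735.6, 1994 and 1419 reads, or 763, 1167 and 919 RPM. It was 1.53-fold higher at 98 d than at 63 d (1.40 to 1.67). Its 161 d to 98 d ratio was 0.788 (0.736 to 0.844), and that of 161 d to 63 d was 1.2 (1.10 to 1.32). Other scalings moved the ratio of 161 d to 98 d up to 0.948 (0.885 to 1.02), where its interval held 1.

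mdo-miR-203, an opossum name for the epidermal miRNA, was the most abundant member in all 3 libraries when reads with mapping errors were included. It had 340, 815 and 620 reads and levels of 353, 477 and 402 RPM. The ratio of 98 d to 63 d was 1.35 (1.19 to 1.54) and that of 161 d to 98 d was 0.842 (0.758 to 0.936). The first was 1.91 (1.36 to 2.73) on copies of the representative read and 1.79 (1.45 to 2.21) for reads without mapping errors. The second was then 1.01 (0.789 to 1.28) and 1.03 (0.892 to 1.2), and 1.01 with DESeq2 size factors, so its direction was not settled. The dog name cfa-miR-203 had 54, 133.5 and 87.5 reads, and levels of 56.0, 78.1 and 56.7 RPM. Its 20-base read was a prefix of the mdo-miR-203 read and ended before the only base, A21T (the dog base first), by which the 2 mature sequences differ, so these reads cannot be told apart from shortened mdo-miR-203. Its share of the reads of both names stayed at 13.7%, 14.1% and 12.4% with overlapping intervals.

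ssc-miR-205 had 240, 734 and 549 reads and levels of 249, 429.5 and 356 RPM. It was 1.72-fold higher at 98 d than at 63 d (1.49 to 2.00), the ratio of 161 d to 98 d was 0.828 (0.740 to 0.926) and that of 161 d to 63 d was 1.43 (1.23 to 1.67). The 63 d library was lowest, the 98 d library was highest, and the intervals of the levels (219 to 283, 400 to 462 and 327 to 387) did not overlap. On all reads, mdo-miR-203 and ssc-miR-205 kept a near-even balance. miR-203 gave 58.6%, 52.6% and 53.0% of the reads of both (54.6 to 62.6, 50.1 to 55.1 and 50.2 to 55.9). This depended on the counting. Of reads without mapping errors, mdo-miR-203 had 120, 373 and 353 and ssc-miR-205 had 228, 670 and 494, so that miR-205 was then ahead in every library.

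The joined miR-200a-3p (hsa-miR-200a-3p, bta-miR-200a, mdo-miR-200a-3p) had 63, 150 and 72.5 reads in the counted row, or 65.4, 87.8 and 47.0 RPM. These rows were not alike: the 98 d row was placed at the miR-141 hairpin, and the rows of the other ages had no place on the genome. Summed over all of its rows, the feature had 374 reads at 98 d and 264 at 161 d, and 63 in each of 2 rows at 63 d, or 86.0, 155 and 118 RPM of all rows. On this sum the ratio of 98 d to 63 d was 1.80 (1.47 to 2.22), that of 161 d to 98 d was 0.761 (0.648 to 0.893) and that of 161 d to 63 d was 1.37 (1.10 to 1.71). The counted rows gave 1.34 (0.994 to 1.83), 0.532 (0.396 to 0.709) and 0.714 (0.502 to 1.02), so the direction between 63 and 161 d depended on how the rows were counted. Neither count passed the 2-fold limit in any comparison.

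**Figure D3:**
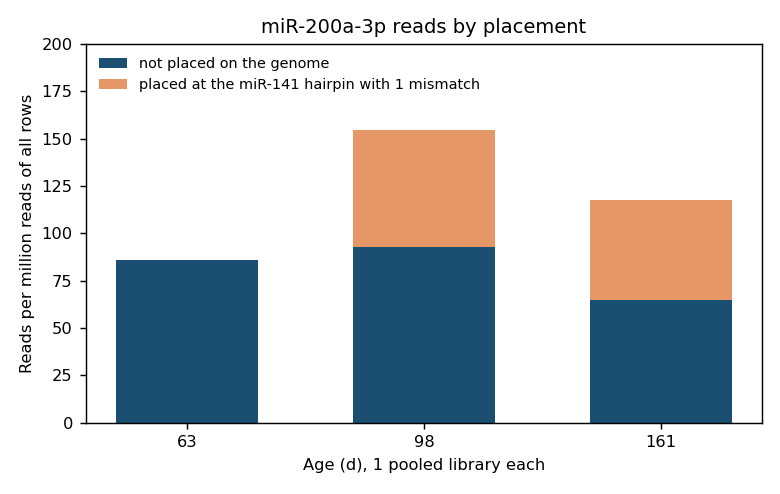
Level of miR-200a-3p (RPM of all rows) at 63, 98 and 161 d, split by where the deposited files placed them. The reads without a place on the genome stood at 86.0, 92.6 and 64.7 RPM, and those at the miR-141 hairpin at 0, 62.0 and 53.1.

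The placement of miR-200a turned on 1 base, which is in capitals in the reads below.
bta-miR-141 read, 98 d: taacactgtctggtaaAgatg
miR-200a read at the miR-141 hairpin, 98 d: taacactgtctggtaaCgatg
The miR-200a read at chr5:66193660-66193757 differed from the genome there by A17C, the genome base first, which is the base that separates mature miR-141 from miR-200a. All 150 reads of that row at 98 d and all 119 at 161 d were counted as carrying a mapping error. The same 21-base read was listed at 63 d without a place on the genome, where 2.5 of the 63 reads of each row carried an error. The cause of this difference between the files was not tested. The rows without a place gave a ratio of 98 d to 63 d of 1.08 (0.862 to 1.35) per reads of all rows. That of 161 d to 98 d was 0.698 (0.562 to 0.864). The most frequent read of these rows had 21 bases at 63 d and 22 bases at 98 and 161 d, where the 21-base read was placed. The ratio of 98 d to 63 d thus compares unlike reads and is not read as a difference in level.

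The other members of the miR-200 family were scarce. bta-miR-200b had 17, 62 and 43 reads and levels of 17.6, 36.3 and 27.9 RPM, and ssc-miR-429, from the same chromosome region, had 14, 56 and 24 reads and levels of 14.5, 32.8 and 15.6. bta-miR-200b was 2.06-fold higher at 98 d than at 63 d (1.19 to 3.75) and ssc-miR-429 2.26-fold (1.24 to 4.39). From 98 to 161 d the ratio was 0.768 (0.508 to 1.15) for bta-miR-200b and 0.475 (0.281 to 0.778) for ssc-miR-429. miR-429 gave 45.2%, 47.5% and 35.8% of the reads of both, with overlapping intervals. bta-miR-141 had 2, 16 and 9 reads and a ratio of 98 d to 63 d of 4.51 (1.06 to 40.5), and bta-miR-200c, its neighbour, had 1, 5 and 2 reads. Some of these calls were near the limit. On copies of the representative read the 98 d to 63 d ratio was 1.58 (0.634 to 4.43) for miR-200b and 5.22 (0.724 to 229) for miR-141. For reads without mapping errors these were 2.3 (0.915 to 6.87) and 5.74 (0.817 to 249). Both calls were lost on either count, while that of ssc-miR-429 was kept. Without miR-133a in the totals the 98 d to 63 d ratio of miR-200b was 1.87 (1.08 to 3.41), and the interval of miR-141, like that of the joined miR-194, was 0.962 to 36.7 and held 1. The ssc-miR-429 call from 98 to 161 d was lost under TMM scaling, at a ratio of 0.554 (0.328 to 0.908), and with DESeq2 size factors, at 0.571 (0.338 to 0.937).

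By the rule of more than 2-fold with an interval that did not hold 1, among features with at least 10 reads over both libraries, 7 of 11 members were higher at 98 d than at 63 d and none was lower. Among all 576 features tested the shares were 11.6% higher and 9.9% lower. The 7 were ssc-miR-192, ssc-miR-215, ssc-miR-122, the joined miR-194, bta-miR-141, bta-miR-200b and ssc-miR-429, that is all 4 tested of the gut, kidney and liver group and 3 of 7 of the epithelial group. Of these, bta-miR-141 (2 and 16 reads) and the joined miR-194 (1.5 and 16) passed the filter only through their 98 d reads. Their calls thus add no support of their own. From 98 to 161 d, 5 of 12 members were lower and none higher, beside 15.7% lower and 5.46% higher of 586 features. These were the same 4 of the gut, kidney and liver group and ssc-miR-429, of 8 epithelial members tested. The joined miR-194 (16 and 2 reads) again passed the filter only through its 98 d reads. From 63 to 161 d, 1 of 10 members, ssc-miR-215, was higher and none was lower, beside 9.67% higher and 20.6% lower of 548 features, so that the members' share higher was near the background. The median ratio of 98 d to 63 d was 2.26 over the members tested and 1.11 over all features tested. For 161 d to 98 d the medians were 0.503 and 0.831, and for 161 d to 63 d 1.28 and 0.870. The first 2 member medians include bta-miR-141 and the joined miR-194, and the second also mmu-miR-203-5p (7 and 3 reads). All 3 count mdo-miR-203 and cfa-miR-203 apart, though their reads cannot be told apart. The member medians thus add no support of their own.

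**Figure D4:**
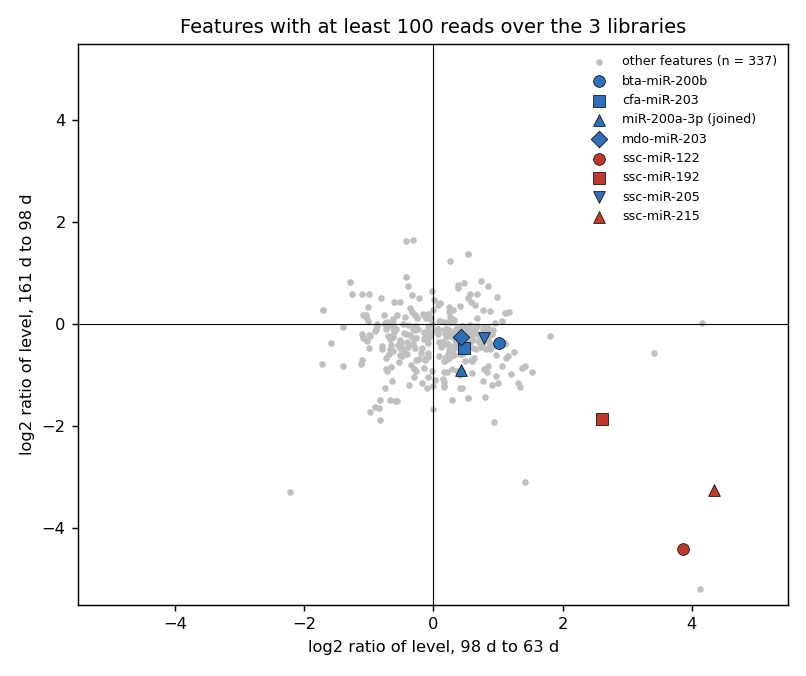
log2 ratio of level for 98 d to 63 d (horizontal) and 161 d to 98 d (vertical), with 0.5 RPM added, for the 8 members (coloured) and 337 other features (grey) with at least 100 reads over the 3 libraries; 11 other features lie outside the axes. ssc-miR-192, ssc-miR-215 and ssc-miR-122 lie at 2.61, 4.34 and 3.87 horizontally and -1.85, -3.24 and -4.40 vertically. They lie apart from the cloud that holds the epithelial members, as does the non-member bta-miR-2478, with 7, 231.5 and 5 reads at 63, 98 and 161 d.

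The make-up of the member reads, which does not depend on the scaling of the libraries, changed in the same way. Of all member reads, the gut, kidney and liver group gave 8.06% in the 63 d library (6.31 to 10.1) and 37.5% in that of 98 d (35.8 to 39.2). In the 161 d library it gave 10.3% (8.90 to 11.9). Summed over all rows the shares were 7.71%, 35.9% and 9.50%. Thus the intervals at 63 and 161 d overlapped, and the 98 d share lay outside both. miR-203 of all names gave 49.5%, 30.1% and 45.0% of the member reads, and miR-205 gave 30.2%, 23.2% and 34.9%.

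**Figure D5:**
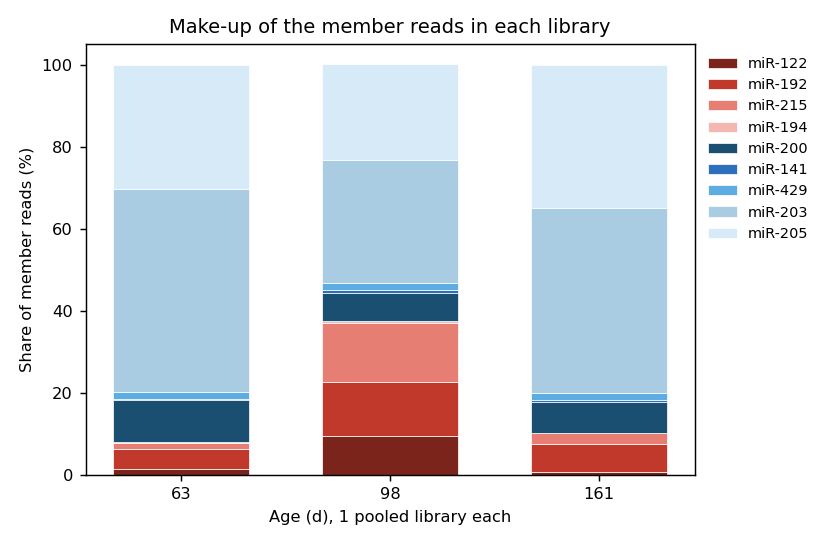
Share of the member reads (%) given by each miRNA number in the libraries of 63, 98 and 161 d; red shades, gut, kidney and liver group; blue shades, epithelial group. miR-122, miR-192 and miR-215 gave 9.35%, 13.4% and 14.2% at 98 d and at most 6.70% each at 63 and 161 d.

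Within a library the members formed tiers on the counted rows, though neighbours in the order often overlapped. The place of miR-200a-3p in them depended on that choice of row. At 63 d mdo-miR-203 and then ssc-miR-205 led. They were followed by miR-200a-3p, cfa-miR-203 and ssc-miR-192 between 40.5 and 65.4 RPM, where neighbours overlapped. Summed over all rows, miR-200a-3p was at 86.0 RPM of all rows at 63 d, cfa-miR-203 at 38.2 and ssc-miR-192 at 26.6. miR-200b, miR-429, miR-215 and miR-122 overlapped at 11.4 to 17.6, and miR-141 and miR-194 were lowest at 2.07 and 1.56. At 98 d miR-203 and miR-205 overlapped at the top, and miR-215 and miR-192 overlapped below them. On the counted rows miR-122 at 174 stood apart from both miR-192 and miR-200a-3p. Over all rows its order with miR-200a-3p was reversed, with miR-122 at 123 and miR-200a-3p at 155 RPM of all rows. At 161 d miR-192 came next after miR-203 and miR-205 on the counted rows, at 68.7 and overlapping cfa-miR-203. Over all rows, miR-200a-3p (118 RPM of all rows) stood above miR-192 (47.3) at 161 d. miR-122 was back among the scarcest at 7.78, overlapping miR-141 at 5.83.

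The letters of the reads differed between libraries for 2 of the miRNAs of the gut, kidney and liver group, whose most frequent reads are shown with the base that separates each pair in capitals (base 20 for miR-192 and miR-215, base 10 for miR-194).
ssc-miR-192 read, all libraries: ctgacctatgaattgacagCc
ssc-miR-215 read, 63 d: atgacctatgaattgacagCca
ssc-miR-215 read, 98 d: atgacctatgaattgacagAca
ssc-miR-215 read, 161 d: atgacctatgaattgacagAc
ssc-miR-194a read, all libraries: tgtaacagcAactccatg
ssc-miR-194b-5p read, 63 d: tgtaacagcAactccatg
ssc-miR-194b-5p read, 98 d: tgtaacagcGactccatgtggac
ssc-miR-194b-5p read, 161 d: tgtaacagcAactccatg
The 63 d read listed as ssc-miR-215 differed from the mature sequence by A20C and thus had the first base of miR-215 and base 20 of miR-192. It had 8 copies, and 7 of the 12 reads at 63 d carried a mapping error (58.3%, interval 32.0 to 80.7), against 53.5 of 447.5 at 98 d (12.0%, 9.36 to 15.4). At 63 and 161 d the read listed as ssc-miR-194b-5p differed from the genome by G10A, which gives it the letters of miR-194a, and it was the same 18-base read, with 2 and 3 copies. At 98 d the miR-194b-5p read had its own base and 17 copies. From which hairpin such reads came cannot be told apart.

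Mapping errors, that is bases that differ from the hairpin or genome, were uneven over the members. ssc-miR-205 had 5% to 10% of reads with an error and ssc-miR-192 16.3% to 23.1%. bta-miR-200b had 53.5% to 64.7%, and its most frequent read differed from the genome by C23T in its added 3′ end in all 3 libraries. For mdo-miR-203 the share was 64.7%, 54.2% and 43.1% at 63, 98 and 161 d, with intervals (59.5 to 69.6, 50.8 to 57.6 and 39.2 to 47.0) that did not overlap. Every read in the counted rows of cfa-miR-203 carried an error, and the most frequent read differed by A16C from the genome at chr5:56306473-56306543. The most frequent miR-122 read was the full 23 bases at 63 and 161 d and 21 bases at 98 d.

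The 16 members with fewer than 10 reads in every library were mostly opposite arms and other-species names, with at most 7 reads. Of these, 7 had reads at 98 d only, 1 at 63 d only and 1 at 161 d only, and 4 had reads in every library. The 98 d library was the deepest. Over all features it also had the most with a read, 1172, against 923 at 63 d and 1052 at 161 d. These counts are therefore not read as a difference between ages. mmu-miR-203-5p had 2, 7 and 3 reads, oan-miR-205-5p had 2, 6 and 3, cgr-miR-215-3p had 3 at 98 d, mdo-miR-429 had 3 at 161 d and ggo-miR-203b had 3 at 98 d and 2 at 161 d. Most of these counts lay at or below the floor of 3 reads, and no fold is given for them.

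Other marker lists were set beside the members, since muscle samples hold vessels, blood, nerve and connective tissue, and fewer cells of a type and less RNA per cell cannot be told apart in such bulk samples. The second liver marker on the list, miR-885, did not follow miR-122: its levels were 195, 307 and 470 RPM. The 9 markers of other epithelia (miR-182, miR-183, miR-96, miR-375, miR-31, miR-184, miR-34b, miR-34c and miR-449) summed to 306, 438 and 335 RPM, with a ratio of 98 d to 63 d of 1.43 (1.25 to 1.65), 2 of 9 features tested higher and none lower. The 5 blood cell markers (miR-451, miR-144, miR-142, miR-223 and miR-150) summed to 3161, 4560 and 3298, a ratio of 1.44 (1.38 to 1.5), with 2 of 10 features higher and 1 lower. The 3 pancreas markers (miR-216, miR-217 and miR-375) summed to 41.5, 53.2 and 41.5 RPM, the nerve and endocrine list (miR-124, miR-9, miR-7 and miR-375) to 2825, 4852 and 4426, and the smooth muscle and vessel list (miR-143, miR-145 and miR-126) to 23173, 30625 and 49460. No marker of any list was at 0 in a library. The last 3 lists had ratios of 98 d to 63 d of 1.28 (0.876 to 1.91), 1.72 (1.64 to 1.79) and 1.32 (1.30 to 1.34). Of their features tested, 2 of 3, 1 of 8 and 0 of 6 were higher at 98 d, and none was lower. Over all features tested 11.6% were higher and 9.9% lower. The part of such cells in the members' levels was not tested.

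By the distance between log2 ratios over the 3 libraries, the non-member features nearest to ssc-miR-205, out of 337 with at least 100 reads, were ssc-miR-374a-3p (582, 998 and 856 RPM), mdo-miR-139-5p, ssc-miR-9, ssc-miR-16 and ssc-miR-151-5p, at distances of 0.0498 to 0.106. The nearest to joined miR-200a-3p were bta-miR-424-5p (45.6, 62.0 and 32.7 RPM), ssc-miR-18a, ssc-miR-206, bta-miR-376b and ssc-miR-542-3p, at 0.0235 to 0.181, on the counted rows whose placement differed. ssc-miR-192 had no close match. Its nearest, ssc-miR-450c-5p, was at a distance of 1.42 with 478, 1209 and 516 RPM, followed by bta-miR-1, ssc-miR-450a, mmu-let-7c-5p and ssc-miR-450b-5p up to 1.59. Nearest patterns of ssc-miR-215 and ssc-miR-122 were not sought. The non-member bta-miR-2478 had 7, 231.5 and 5 reads, a ratio of 98 d to 63 d of 18.7. The predicted candidate PC-3p-5269_66 had 1508 reads at 98 d and 0 at 63 and 161 d. A peak at 98 d was thus not particular to the members.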

How the data were processed

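Small RNA libraries were made with a TruSeq kit and sequenced on an Illumina HiSeq instrument. The authors ran ACGT101-miR v4.2, which mapped reads to miRBase hairpins and the pig genome (build not given in the sources used here); fractional values show that reads were divided over the rows they matched. The deposited expected counts per row (all reads, and those without mapping errors) and the deposited count of copies of the most frequent read were used. The header lines of the 98 and 161 d files are shifted by 1 cell and were realigned, and 139 blank names at 63 d were filled from the row above. Names that shared a representative read were joined, and each feature was counted at 1 row per library, the hairpin listed in most libraries, so that reads divided over several rows were counted only in part. Counts were rounded to whole reads for ratios. Ratios of levels (reads per 1000000 counted, RPM) carry exact conditional binomial (Clopper-Pearson) intervals, and levels and shares Wilson intervals (95%), computed with scipy 1.17.1. With 1 library per age no test between ages exists. The call was tested on simulated counts that held counting error only, with differences set only in features of higher counts. That test says nothing of PCR, of differences between pigs or of changes in scarce members. All members with at least 10 reads in a library are named with values. For 3 members the 5 nearest patterns among features of at least 100 reads are named. Members and lists were chosen with earlier results of these data known. Alternatives included edgeR 4.0.16 TMM and DESeq2 1.42.0 size factors as scalings only.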

Additional observations from a re-analysis of the deposited data

How the results depend on the processing

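The gut, kidney and liver group kept its direction in all 3 comparisons under all 8 alternatives of counting or scaling. Its ratio of 161 d to 98 d moved from 0.151 to 0.182 with DESeq2 size factors, its only ratio that left the counting interval of the value reported. On copies of the representative read its ratio of 161 d to 63 d was 1.56 (0.995 to 2.49), an interval that held 1. The epithelial ratios, whose counting intervals were narrower, left them more often. The ratio of 98 d to 63 d, 1.53, became 1.68 summed over all rows, 1.83 on copies of the representative read and 1.39 with totals without miR-133a. That of 161 d to 98 d, 0.788, became 0.929 for reads without mapping errors, 0.92 with TMM, 0.948 with DESeq2 size factors and 0.858 without miR-133a. That of 161 d to 63 d, 1.2, became 1.33 over all rows, 1.43 on copies, 1.41 without mapping errors, 1.38 with TMM and 1.40 with DESeq2 size factors. Members past 2-fold from 63 to 98 d numbered 4 in place of 7 without miR-133a, and from 63 to 161 d 2 with a 1.5-fold limit and 0 with a 3-fold limit in place of 1. TMM and DESeq2 scaling moved every ratio of 161 d to 98 d by 0.22 and 0.27 on the log2 scale, and of all features called there 37.4% and 42.5% were then higher, against 25.8%. From 63 to 161 d those scalings moved ratios by 0.19 and 0.22, and 39.7% and 42.1% of called features were higher, against 31.9%. From 63 to 98 d totals without miR-133a moved ratios by -0.14, with 43.2% higher against 54%, and the sum of all rows moved them by 0.10. Of the single members' values, counted over 260 pairs of a ratio and a setting, 240 stayed within the counting interval, 19 moved by over 1.5 times and 10 lay on the other side of 1, none of them of a called ratio. These were of miR-200a-3p (98 d to 63 d and 161 d to 63 d), mdo-miR-203 (161 d to 98 d), and ssc-miR-122 and the joined miR-194 (161 d to 63 d). Without mapping errors the miR-200a-3p row of 98 d, at the miR-141 hairpin, holds 0 reads. By that count miR-200a-3p was called lower from 63 to 98 d and higher from 98 to 161 d, where the main count made no call. Its ratio of 161 d to 98 d then has no finite value and is not among the 260 pairs. The ratio of 161 d to 63 d was 0.691 (0.479 to 0.996). Further sets of rows were added after seeing the data, here per counted reads. From 63 to 98 d ssc-miR-194b-5p alone gave 15.8. The miR-200a-3p rows without a place on the genome, which hold unlike reads at these ages, gave 1.00, and 1.08 per reads of all rows. No paired analysis was possible because each age had 1 library. Depth limits the members below 10 reads, and differences between pigs of an age were not measurable.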
